A study of Mus musculus with 12 samples.

Results

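The globins of the mouse heart were followed as 6 genes among the 53700 genes of the count table. They were chosen by symbol as the genes for myoglobin (Mb), cytoglobin (Cygb), the adult alpha chains of hemoglobin (Hba-a1 and Hba-a2) and the adult beta chains (Hbb-bs and Hbb-bt, which the older annotation calls Hbb-b1 and Hbb-b2). All 6 passed the filter on low counts, which 17847 genes passed in all.

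Globins hold heme and bind oxygen reversibly at its ferrous iron. Myoglobin is the globin of cardiac and skeletal muscle fibers, cytoglobin is found mainly in fibroblasts and pericytes, and alpha and beta chains fill red blood cells, whose precursors keep making them and whose young circulating forms still carry their mRNA. When the iron is oxidized the globin no longer carries oxygen, and cytochrome b5 reductase 3, the product of Cyb5r3, passes electrons through cytochrome b5 to return it to the ferrous form.

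RNA of the whole heart was compared between 6 male ac-WT mice and 6 male ac-CYB5R3–KO mice, a contrast that asks what changes in the heart when cardiomyocytes lose Cyb5r3. Mice of both groups carried Myh6-CreERT2, a Cre recombinase made under a cardiomyocyte promoter and switched on by tamoxifen. Their Cyb5r3 alleles were CYB5R3wt/wt in ac-WT and CYB5R3fl/fl in ac-CYB5R3–KO mice, on a background that was first FVB and B6 mixed and then backcrossed 3 times to C57BL/6J. All received tamoxifen at 33 mg/kg/d for 5 days from 10 to 13 weeks of age, and hearts were taken 5 days later. The deletion is thus aimed at cardiomyocytes, and the other cells of the heart, blood included, keep the gene. In bulk tissue, fewer cells of a type and less RNA per cell cannot be told apart. Whether blood was rinsed from the hearts is not given in the sources used here.

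The libraries held 43393183 to 53754284 counts. Scaling factors from TMM, a method that equalizes most genes between libraries, were 0.570 in ac-WT mouse 2, 0.723 in ac-WT mouse 3 and 0.988 to 1.22 in the other 10. The same libraries had the highest summed levels of 13 cardiomyocyte genes, 58523 and 46637 CPM (counts scaled to a library of 1000000, always on TMM-scaled library sizes here) against 19146 to 31950 in the other 10 hearts. Their summed levels of 10 fibroblast genes were the lowest, 1731 and 1720 CPM against 4117 to 7611. A low factor raises every CPM of its library. The order of the cardiomyocyte sums therefore depends on the scaling, whereas the scaling works against the low fibroblast sums. Cyb5r3 itself had 81.9 to 185 CPM in ac-WT and 42.0 to 67.4 CPM in ac-CYB5R3–KO hearts. The groups did not overlap, and the log2 fold change was -1.22 (SE 0.191, adjusted p = 0.045 by the quasi-likelihood test of edgeR with Benjamini-Hochberg adjustment over all tested genes). Its adjusted p became 0.315 with total counts (log2 fold change -1.03), 0.135 without ac-CYB5R3–KO mouse 3 (-1.23) and 0.0042 without ac-WT mice 2 and 3 (-1.41) by the same edgeR test.

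The coding sequences are shown first because they set how well the paired genes can be told apart. Over 429 coding bases, Hba-a1 and Hba-a2 differed at 1 position, C381T, counted from 1 at the first base of the start codon with the Hba-a1 base first. Over 444 coding bases, Hbb-bs and Hbb-bt differed at 1 position, C417T, with the Hbb-bs base first. The stretches around these positions follow, bases 351 to 410 of the alpha genes and 387 to 444 of the beta genes from the GENCODE transcripts of NCBIM37, 5′ to 3′ on the coding strand, with the base that differs in capitals.
Hba-a1: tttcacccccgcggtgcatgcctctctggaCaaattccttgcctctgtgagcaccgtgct
Hba-a2: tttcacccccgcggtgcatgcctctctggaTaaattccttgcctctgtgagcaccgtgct
Hbb-bs: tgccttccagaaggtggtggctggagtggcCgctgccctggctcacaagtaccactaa
Hbb-bt: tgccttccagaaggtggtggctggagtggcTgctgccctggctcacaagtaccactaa
Of all stretches of 75 bases, the read length, 81.0% of those in the annotated Hba-a2 transcript and 62.2% of those in Hba-a1 occur in both. For the beta pair the shares were 56.6% of Hbb-bt and 50.6% of Hbb-bs. How reads that match both genes were counted is not given in the sources used here, so the split between Hba-a1 and Hba-a2, and between Hbb-bs and Hbb-bt, is uncertain, and each pair is best read together.

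The sequence before the start site is shown because Hba-a1 and Hbb-bs, 1 gene of each pair, kept a nearly constant ratio from heart to heart. For 5 of the 6 genes RefSeq sequence was at hand, and the 110 bases before the first transcribed base (GRCm38.p6) follow, 5′ to 3′ on the strand of the gene. Capitals mark matches on either strand to CACCC, the box bound by erythroid and other Krüppel-like factors. They also mark CCAAT, the box of the factor NF-Y, as well as TATAA, the letters of the TATA box, and likewise CANNTG, the E box of muscle and other basic helix-loop-helix factors.
Hba-a1, chr11:32283562-32283671, plus strand: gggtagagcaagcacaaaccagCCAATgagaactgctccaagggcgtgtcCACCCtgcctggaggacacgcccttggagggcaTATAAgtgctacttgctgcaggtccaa
Hba-a2, chr11:32296382-32296491, plus strand: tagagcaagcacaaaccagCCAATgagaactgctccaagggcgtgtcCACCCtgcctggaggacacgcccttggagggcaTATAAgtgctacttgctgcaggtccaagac
Hbb-bs, chr7:103827929-103828038, minus strand: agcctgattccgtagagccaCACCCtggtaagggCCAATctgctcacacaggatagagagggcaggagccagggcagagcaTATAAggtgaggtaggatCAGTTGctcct
Hbb-bt, chr7:103813924-103814033, minus strand: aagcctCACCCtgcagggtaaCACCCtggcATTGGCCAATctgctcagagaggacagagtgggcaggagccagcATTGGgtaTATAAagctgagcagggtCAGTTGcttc
Mb, chr15:77022728-77022837, minus strand: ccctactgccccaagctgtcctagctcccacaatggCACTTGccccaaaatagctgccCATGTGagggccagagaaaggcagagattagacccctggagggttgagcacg
All 4 blood globin windows held the CACCC box, the CCAAT box and the TATA box. The TATA match began 27 to 30 bases before the start in each. The Mb window, 1 of 3 RefSeq starts for this gene, held none of these and 2 E box matches. Both beta globin windows held an E box match as well. Beyond its printed bases, Mb had a CACCC match at -114 to -110 from the start and a CCAAT match at -202 to -198. The letters AGATAA were also searched and occurred in none of the printed windows. Among 32851 windows of 110 bases, the CACCC box occurred in 29.6%, the CCAAT box in 20.2%, the TATA box in 10.9%, the E box in 37.6% and AGATAA in 3.99%. The alpha promoters shared an identical run of 247 of 250 bases, and the longest run shared by the beta promoters was 14 bases. These matches describe letters in a window and say nothing of binding.

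The 6 genes differed in how they compared between the groups. None passed an adjusted p under 0.05, which 0.101% of all tested genes did. At an unadjusted p under 0.05, all 4 blood globins were higher in ac-CYB5R3–KO hearts, a direction and threshold that 4.91% of tested genes met, while Mb and Cygb did not pass. In all 6 genes the values of the groups overlapped, and 1.55% of tested genes had groups that did not overlap. By size of the log2 fold change, Hbb-bs ranked 77, Hbb-bt 83, Hba-a1 120 and Hba-a2 121 among the 17847 genes, whereas Mb ranked 9293 and Cygb 9483. The median of all tested genes was -0.01 on the same scale.

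**Figure D1:**
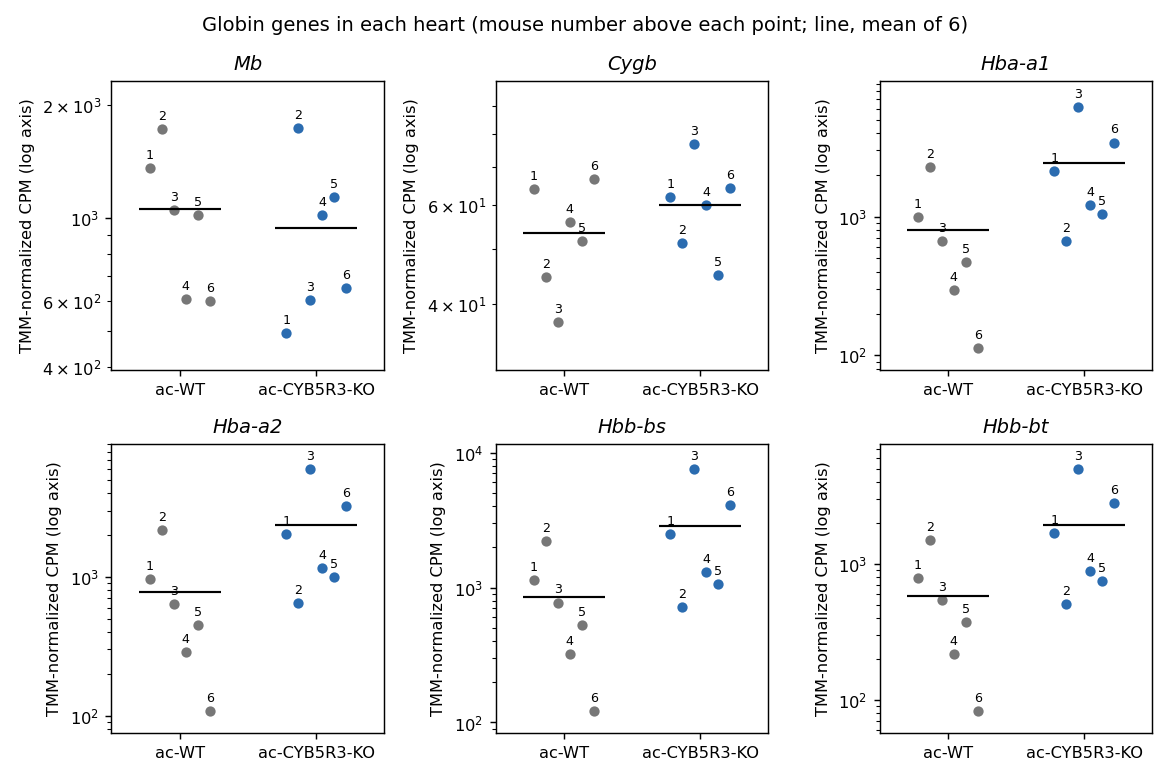
CPM (TMM-scaled, log axis) of the 6 globin genes in each of 6 ac-WT (gray) and 6 ac-CYB5R3–KO (blue) hearts, with the mouse number above each point and a line at the mean. The 4 blood globins show the same order of hearts within each group, with ac-CYB5R3–KO mouse 3 highest and ac-WT mouse 6 lowest, while Mb and Cygb cover similar ranges in both groups.

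Mb (ENSMUSG00000018893, chromosome 15 from 76845919 to 76881100 on the minus strand in NCBIM37) encodes the oxygen store of the cardiomyocyte. It ran from 601 CPM over a median of 1036 to 1726 CPM in ac-WT hearts. In ac-CYB5R3–KO hearts the lowest value was 492, the median 837 and the highest 1745 CPM. Mouse 2 was the highest heart of each group, and the lowest ac-CYB5R3–KO heart, mouse 1, lay below every ac-WT heart. The means were 1061 ± 436 and 943 ± 467 CPM (SD, n = 6 each), and the log2 fold change was -0.17 (SE 0.335, edgeR adjusted p = 0.834). This direction was not stable. It became 0.18 when total counts replaced TMM, a scale on which the median of all tested genes was 0.26, and it was 0.03 without ac-WT mouse 2 and 0.09 without ac-WT mice 2 and 3.

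Cygb (ENSMUSG00000020810, chromosome 11 from 116506909 to 116515627, minus strand, NCBIM37) encodes a globin that scavenges nitric oxide and that cytochrome b5 and its reductase can keep reduced. The level ran from 37.2 over a median of 53.8 to 66.7 CPM in ac-WT mice, and in ac-CYB5R3–KO mice from 44.9 over 61.0 to 76.8 CPM. The lowest heart was ac-WT mouse 3 and the highest was ac-CYB5R3–KO mouse 3. Cygb was the steadiest of the 6 genes, with a ratio of highest to lowest heart of 1.79 in ac-WT and 1.71 in ac-CYB5R3–KO mice. The means were 53.4 ± 11.3 and 59.9 ± 11 CPM (SD, n = 6 each). The log2 fold change was 0.17 (SE 0.159, edgeR adjusted p = 0.634), and 0.02 without ac-WT mice 2 and 3, the hearts where Cygb was lowest within their group.

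Hba-a1 (ENSMUSG00000069919, chromosome 11 from 32183511 to 32184465, plus strand, NCBIM37) encodes the adult alpha chain. Its levels in the 6 ac-WT hearts ran from 112 over a median of 565 to 2272 CPM, a 20.2-fold range. In the 6 ac-CYB5R3–KO hearts they ran from 670 over 1672 to 6199 CPM, a 9.25-fold range. All 6 ac-CYB5R3–KO hearts lay above the ac-WT median, and 2 of them, mice 3 and 6, lay above every ac-WT heart. The means were 801 ± 783 and 2445 ± 2087 CPM (SD, n = 6 each), and the log2 fold change was 1.61 (SE 0.672, unadjusted p = 0.0316 and adjusted p = 0.290 by edgeR). Permuting the 12 hearts over all 924 splits into 6 and 6, an exact permutation test (two-sided, on log2(CPM + 1)), gave p = 0.0433 without adjustment.

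Hba-a2 (ENSMUSG00000069917, chromosome 11 from 32196489 to 32197301, plus strand, NCBIM37) is the neighboring copy of the alpha gene. It ran from 108 over a median of 544 to 2188 CPM in ac-WT hearts. In ac-CYB5R3–KO hearts it ran from 646 over 1606 to 5966 CPM, with the hearts in the same order as for Hba-a1. The log2 fold change was 1.61 (SE 0.672, edgeR adjusted p = 0.290). In every heart the count of Hba-a1 was 1.03 to 1.05 times that of Hba-a2. With the 2 genes summed before the fit, the log2 fold change was 1.61 (SE 0.674, edgeR adjusted p = 0.292).

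Hbb-bs (ENSMUSG00000052305, chromosome 7 from 110975048 to 110976610, minus strand, NCBIM37) encodes an adult beta chain. Levels ran from 121 over a median of 649 to 2220 CPM among ac-WT mice. Among ac-CYB5R3–KO mice they ran from 712 over 1891 to 7560 CPM. All 6 ac-CYB5R3–KO hearts were above the ac-WT median, and mice 1, 3 and 6 were above every ac-WT heart. The means were 849 ± 759 and 2865 ± 2607 CPM (SD, n = 6 each). The log2 fold change was 1.75 (SE 0.683, unadjusted p = 0.0226 and adjusted p = 0.267 by edgeR).

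Hbb-bt (ENSMUSG00000073940, chromosome 7 from 110961038 to 110962510, minus strand, NCBIM37) encodes the other adult beta chain. It ran from 82.1 over 457 to 1504 CPM among ac-WT mice and over a range of 503 to 4986 CPM, with a median of 1283, among ac-CYB5R3–KO mice, and the log2 fold change was 1.73 (SE 0.673, edgeR adjusted p = 0.267). Summing the beta genes gave 1.74 (SE 0.681, edgeR adjusted p = 0.267).

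Single hearts moved the size of the blood globin difference. Without ac-CYB5R3–KO mouse 3, the heart with the most globin mRNA, the log2 fold change fell to 1.18 for Hbb-bs, 1.17 for Hbb-bt, 1.08 for Hba-a1 and 1.07 for Hba-a2, and none of the 6 genes passed an unadjusted p under 0.05. The unadjusted p of Hba-a1 and Hba-a2, not that of the beta genes, also rose above 0.05 without ac-CYB5R3–KO mouse 6 or any 1 of ac-WT mice 3, 4 and 5. Without ac-WT mouse 2 it was 2.32 for Hbb-bs and 2.28 for Hba-a1. Without ac-WT mice 2 and 3, 4 of the 6 genes passed an unadjusted p under 0.05, against 7.98% of the 18299 genes tested there, and Hbb-bs stood at 2.45. With total counts, under which the median of all tested genes moved from -0.01 to 0.26, Hbb-bs stood at 2.30 and Hba-a1 at 2.18. The 4 blood globins were higher in ac-CYB5R3–KO hearts under each of these settings.

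**Figure D2:**
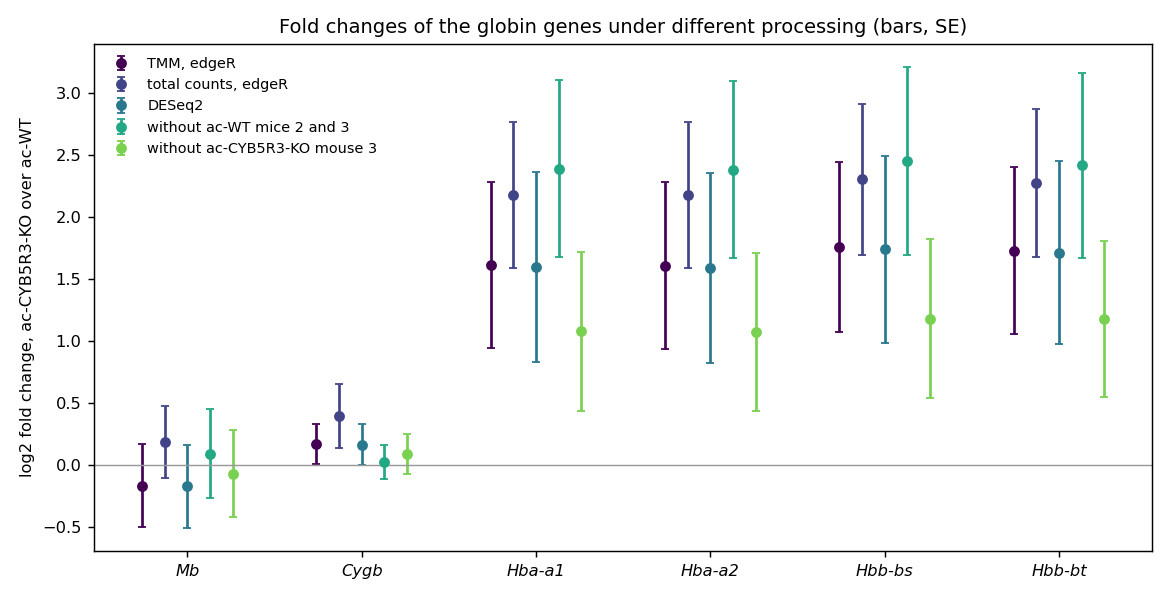
Log2 fold change (ac-CYB5R3–KO over ac-WT) of each globin gene with its standard error, under TMM scaling, total counts, DESeq2, without ac-WT mice 2 and 3, and without ac-CYB5R3–KO mouse 3. Mb lies on both sides of 0, Cygb between 0.02 and 0.39, and the blood globins between 1.07 and 2.45.

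Levels can be compared between genes once divided by exon length. In ac-WT hearts the mean levels per kilobase were 847 ± 348 CPM for Mb, 22.9 ± 4.8 for Cygb, 987 ± 964 for Hba-a1, 1152 ± 1125 for Hba-a2, 984 ± 880 for Hbb-bs and 830 ± 731 for Hbb-bt (SD, n = 6 each). Cygb was the lowest per kilobase in every heart of both groups, whereas the order of the other 5 in ac-WT hearts lay within their spread. Mb per kilobase was above Hbb-bs in 3 of 6 ac-WT hearts and in 1 of 6 ac-CYB5R3–KO hearts, mouse 2. In ac-CYB5R3–KO hearts the means per kilobase were 753 ± 373 CPM for Mb, 25.7 ± 4.7 for Cygb, 3011 ± 2570 for Hba-a1 and 3320 ± 3021 for Hbb-bs (SD, n = 6 each).

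Ratios of counts within a heart do not depend on the scaling of the libraries, and 8 of them were tested. They are not corrected for gene length, which cancels in a difference between groups. The log2 ratio of Mb to Hbb-bs lay between -0.36 and 2.31 in ac-WT hearts, while ac-CYB5R3–KO hearts lay between -3.65 and 1.29. In 5 of 6 ac-CYB5R3–KO hearts it was below the ac-WT median, and in mice 1, 3 and 6 below every ac-WT heart. The means were 0.76 ± 0.90 and -1.26 ± 1.90 (SD, n = 6 each), a difference of -2.02 (two-sided exact permutation p = 0.0563, adjusted over the 8 ratios p = 0.134). For Mb to Hba-a1 the means were 0.88 ± 0.93 and -1.10 ± 1.80, and the difference was -1.98 (exact permutation p = 0.0476, adjusted p = 0.134). The unadjusted p of this ratio rose above 0.05 when any of ac-WT mice 1, 3, 4, 5 and 6 or of ac-CYB5R3–KO mice 1, 3, 4 and 6 was left out, up to p = 0.0931 by the same exact permutation test without ac-WT mouse 6, where the difference was -1.67.

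For Cygb to Hbb-bs the spread was wider still, with Hbb-bs counts at 1.82 times those of Cygb in ac-WT mouse 6 and 98.4 times in ac-CYB5R3–KO mouse 3. The mean difference between groups was -1.64 (exact permutation p = 0.0628, adjusted p = 0.134), and for Cygb to Hba-a1 it was -1.60 (p = 0.0671, adjusted p = 0.134). Both were below the ac-WT median in all 6 ac-CYB5R3–KO hearts. Mb and Cygb, the tissue globins, had a log2 ratio of 4.24 ± 0.80 in ac-WT and 3.86 ± 0.90 in ac-CYB5R3–KO hearts (SD, n = 6 each), a difference of -0.38 (exact permutation p = 0.446). None of the 8 ratios passed the adjustment. Without ac-CYB5R3–KO mouse 2 the unadjusted p of the exact permutation test was 0.0065 for Mb to Hbb-bs, 0.0433 for Cygb to Hba-a1 and 0.0476 for Cygb to Hbb-bs, and without ac-WT mouse 2 these were 0.0498, 0.0130 and 0.0195. Mb to Hbb-bs also reached p = 0.0411 by that exact permutation test without ac-CYB5R3–KO mouse 5.

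Among the blood globins the ratios were nearly constant. Hba-a1 to Hbb-bs was 0.820 to 1.02 over the 12 hearts, although either gene alone varied 18.3- to 20.2-fold within ac-WT hearts. The difference between groups was -0.04 on the log2 scale (exact permutation p = 0.539). Hbb-bs to Hbb-bt was 1.41 to 1.52 in the 12 hearts, with a difference of 0.01 (exact permutation p = 0.773), and Hba-a1 to Hba-a2 differed by 0.003 (exact permutation p = 0.338). Within each pair, reads that match both genes may set the ratio, since how they were counted is not known. The ratios within a pair therefore cannot show whether its genes keep in step.

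**Figure D3:**
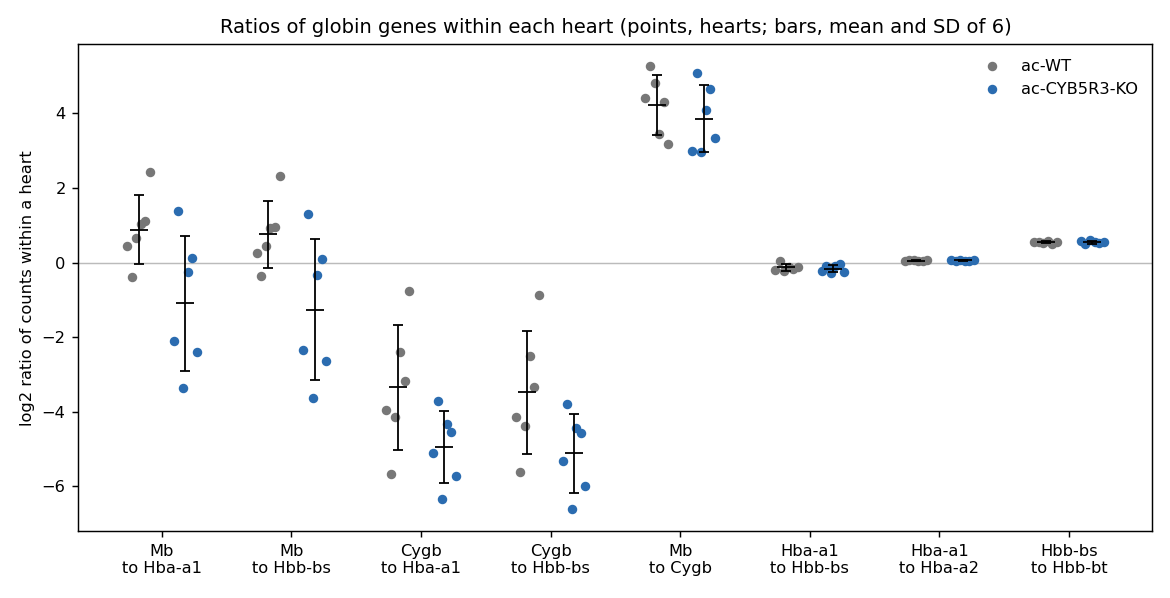
Log2 ratios of counts between 2 globin genes within each heart, for 6 ac-WT (gray) and 6 ac-CYB5R3–KO (blue) hearts, with the mean and SD of each group. Ratios of Mb or Cygb to a blood globin spread over more than 5 log2 units across the hearts, whereas ratios among blood globins stay within 0.32.

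The relation of Mb to Hbb-bs had opposite signs in the groups. Over all 12 hearts on log2(CPM + 1), Pearson's r was -0.048 (permutation p = 0.883) and Spearman's rho was -0.077 (permutation p = 0.816). Pearson's r was 0.950 in ac-WT hearts (n = 6, exact permutation p = 0.0042, adjusted over 6 correlations within groups p = 0.025) and Spearman's rho was 1.0 (exact permutation p = 0.0028, adjusted p = 0.0167). Without the 2 hearts farthest from the median of Mb, r was 0.976, and without ac-WT mice 2 and 3 it was 0.908. In ac-CYB5R3–KO hearts r was -0.839 (n = 6, exact permutation p = 0.0375, adjusted p = 0.075), rho was -0.829 (exact permutation p = 0.0583, adjusted p = 0.117), and r without the 2 farthest hearts was -0.983. With total counts r was 0.763 in ac-WT (exact permutation p = 0.075) and -0.746 in ac-CYB5R3–KO hearts (exact permutation p = 0.0847). The difference between the groups in this relation was not tested.

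Cygb and Hbb-bs had r = -0.528 in ac-WT (exact permutation p = 0.285, adjusted p = 0.342) and r = 0.882 in ac-CYB5R3–KO hearts (exact permutation p = 0.0181, adjusted p = 0.0542), where rho was 0.943 (exact permutation p = 0.0167, adjusted p = 0.05) and r without the 2 hearts farthest from the median of Cygb was 0.929. Mb and Cygb had r = -0.579 over the 12 hearts (permutation p = 0.0498, adjusted over 3 pairs p = 0.150) and rho = -0.650 (permutation p = 0.0253, adjusted p = 0.076). With total counts r was -0.140 (permutation p = 0.659) and rho was -0.469 (permutation p = 0.129).

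**Figure D4:**
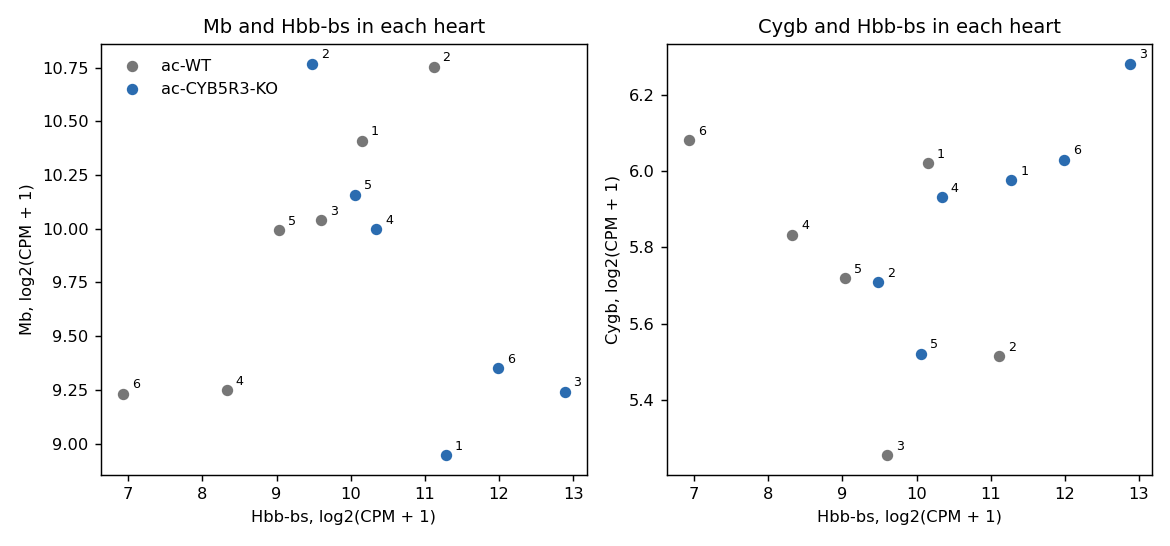
Mb (left) and Cygb (right) against Hbb-bs in each heart, all as log2(CPM + 1), with mouse numbers, for 6 ac-WT (gray) and 6 ac-CYB5R3–KO (blue) hearts. Mb runs upward with Hbb-bs in ac-WT hearts (r = 0.950) and downward in ac-CYB5R3–KO hearts (r = -0.839), and Cygb runs upward with it in ac-CYB5R3–KO hearts (r = 0.882).

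The genes closest to each globin were sought across the 12 hearts, once the group means were removed, by Pearson's r. For Hbb-bs they were Hbb-bt (r = 0.9998), Hba-a1 (0.998), Hba-a2 (0.998) and Alas2 (0.984), the erythroid enzyme that begins heme synthesis. How reads matching both beta genes were counted is not known, which limits the reading of the r of Hbb-bt. For Mb they were Eif4e, which binds the mRNA cap (r = 0.979), Slc25a13, a mitochondrial aspartate and glutamate carrier (0.978), Dnajc28 (0.976), Pln, the regulator of the cardiac calcium pump (0.974), and Echdc3 (0.971). For Cygb they were Rhbdl2 (r = 0.927), Myo1d (0.910), Asns, asparagine synthetase (0.907), Plekho2 (0.898) and Cpne2 (0.888). These correlations describe the same 12 libraries, share their scaling, and were the highest of all tested genes, so they carry no p.

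Of 15 red blood cell genes, globins aside, 8 had enough counts to be tested. At an unadjusted p under 0.05, 3 were higher and none was lower in ac-CYB5R3–KO hearts, against 4.91% of all tested genes higher, and none passed the adjusted threshold. The median log2 fold change of the 8 was 0.97, beside -0.01 for all genes. Alas2 had 1.37 to 22.4 CPM in ac-WT and 5.88 to 57.6 CPM in ac-CYB5R3–KO hearts (log2 fold change 1.62, SE 0.672, edgeR adjusted p = 0.286). For Bpgm, which makes the bisphosphoglycerate that lowers the oxygen affinity of hemoglobin, it was 0.98 (SE 0.358, edgeR adjusted p = 0.245).

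Another defining red cell gene was low. Slc4a1, the anion exchanger of the red cell membrane, had 6 to 244 counts (log2 fold change 0.96, SE 0.713, edgeR adjusted p = 0.541). Rhd stood at -0.26 and Sptb, which muscle also uses, at 0.12. The summed level of the 15 genes was 42.0 to 113 CPM in ac-WT and 69.8 to 157 CPM in ac-CYB5R3–KO hearts. For each Alas2 count, 88.7 to 139 counts of Hbb-bs were found in ac-WT hearts and 99.9 to 131 in ac-CYB5R3–KO hearts. The mean log2 ratio differed by 0.10 between the groups. Under total counts 7 of 8 red cell genes were higher at an unadjusted p under 0.05, beside 9.45% of all genes in that fit. Without ac-WT mice 2 and 3 it was 6 of 9 beside 3.44%, and without ac-CYB5R3–KO mouse 3 it was 1 of 8 beside 4.85%.

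Regulators of globin expression in red cell precursors were examined next. Klf1, the erythroid factor that binds CACCC at the beta globin promoter, had 1 to 4 counts in each heart, and Gata1 had 0 to 13, too few to test. Of 8 tested erythroid regulators none was higher and 1 was lower at an unadjusted p under 0.05, namely Bcl11a, a repressor of embryonic and fetal globins, at -0.49 (SE 0.180, edgeR adjusted p = 0.248). That share is close to the 9.73% of all tested genes that were lower, and none was lower with total counts or without ac-WT mice 2 and 3. The remaining globins were scarce. Embryonic Hbb-bh1 and Hba-x, along with Hbb-bh2 and Hbb-bh3, had no count in any of the 12 libraries, Hbb-y had 0 to 2 counts, neuroglobin (Ngb) 0 to 9, androglobin (Adgb) 0 to 8, and the theta genes Hbq1a and Hbq1b 0 to 24 and 0 to 27 counts.

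Marker genes of other blood cells were tested in the same way. None of 8 leukocyte genes and none of 6 platelet genes passed an unadjusted p under 0.05, which 14.6% of all tested genes did. Without ac-WT mice 2 and 3, 2 of 8 leukocyte genes were lower at that threshold, beside 4.54% of all genes tested there. With total counts 1 of 8 was higher, beside 9.45% of all genes in that fit. The summed level of the leukocyte genes was 213 to 998 CPM in ac-WT and 325 to 620 CPM in ac-CYB5R3–KO hearts. All 6 platelet genes had log2 fold changes below 0, with a median of -0.47, and their summed level was 22.7 to 86.0 CPM in ac-WT and 11.4 to 55.0 CPM in ac-CYB5R3–KO hearts. That median became 0.22 without ac-WT mice 2 and 3, 0.01 with total counts and -1.15 without ac-CYB5R3–KO mouse 3. The part of the blood content of the hearts in the globin difference was not tested.

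**Figure D5:**
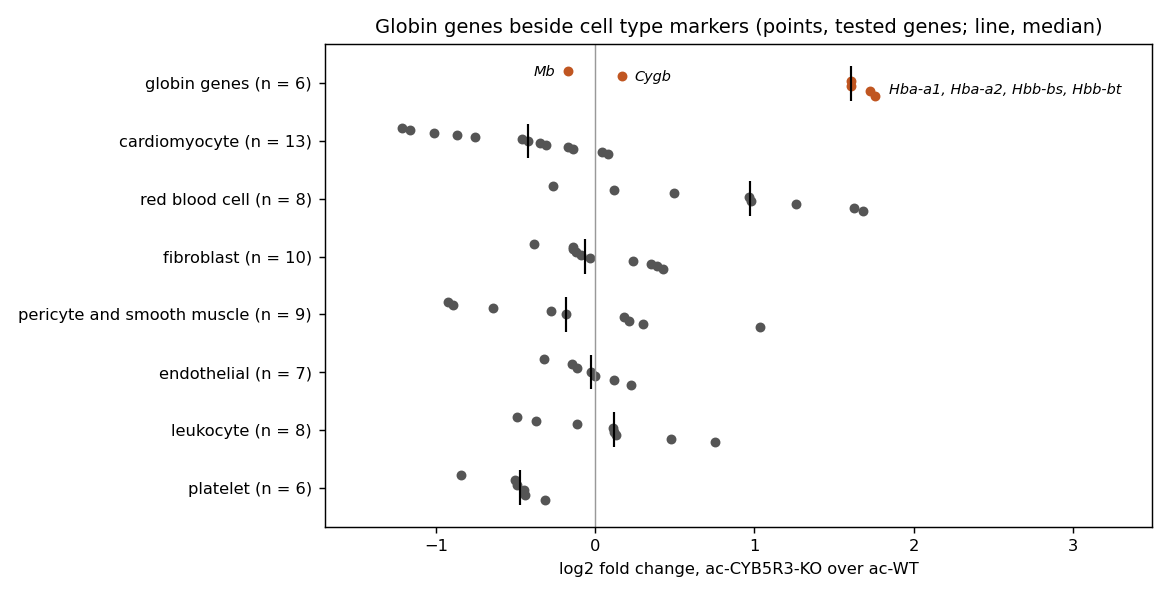
Log2 fold change (ac-CYB5R3–KO over ac-WT) of the 6 globin genes (orange) and of the tested marker genes of 7 cell types (gray), with a line at each median. The blood globins lie between 1.61 and 1.75, beyond the red blood cell median of 0.97, whereas Mb and Cygb lie near 0 and the cardiomyocyte median is -0.42.

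Mb was set beside other genes of its cell. Of 13 cardiomyocyte genes, 5 were lower and none was higher at an unadjusted p under 0.05, against 9.73% of all tested genes lower, and none passed the adjusted threshold. They were Myl2 at -1.22 (SE 0.346), Ckm at -1.16 (SE 0.343), Tnni3 at -1.01 (SE 0.285), Myl3 at -0.87 (SE 0.284) and Myh6, whose promoter drives the Cre, at -0.75 (SE 0.299). The other 8, among them Actc1 at 0.08, Ryr2 at 0.04 and Pln at -0.31, did not pass. Mb at -0.17 lay above the list's median of -0.42. Mb counts were 2.02% to 4.73% of the summed counts of the 13 genes in ac-WT hearts and 2.01% to 5.46% in ac-CYB5R3–KO hearts. For each Pln count there were 1.82 to 2.59 Mb counts in ac-WT and 1.88 to 2.62 in ac-CYB5R3–KO hearts. Skeletal muscle, the other tissue rich in myoglobin, was checked as a possible neighbor in the dissection. Its master regulator Myod1 had 0 to 2 counts, and of 5 tested genes Myh4 at -0.82 (SE 0.344), Tnni2 at -0.62 (SE 0.284) and Ckmt2, which the heart also expresses, at -0.51 (SE 0.223) were lower at an unadjusted p under 0.05. Of 3 tested atrial genes Myl7 was lower, at -1.18 (SE 0.416), a call lost with total counts and without ac-WT mice 2 and 3, and none of 7 endothelial genes passed. Of the skeletal muscle genes, none was lower at that threshold with total counts or without ac-CYB5R3–KO mouse 3, and 1 was without ac-WT mice 2 and 3. Without ac-WT mice 2 and 3 the cardiomyocyte median became -0.08, with 3 of 13 genes lower, beside 4.54% of all genes tested there.

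Of 12 regulators known for the myoglobin gene, 1 was lower at an unadjusted p under 0.05, a share (8.33%) close to the 9.73% of all tested genes. It was Ppargc1a, the coactivator of mitochondrial biogenesis, with 18.7 to 80.3 CPM in ac-WT and 12.4 to 25.3 CPM in ac-CYB5R3–KO hearts (log2 fold change -1.10, SE 0.328, edgeR adjusted p = 0.191). The MEF2 factors stood at -0.11 (Mef2a), 0.16 (Mef2c) and -0.10 (Mef2d), and the calcineurin subunit Ppp3ca at 0.01.

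Cygb was set beside fibroblast and mural cell genes. None of 10 fibroblast genes passed an unadjusted p under 0.05, beside 14.6% of all tested genes, and their median log2 fold change was -0.06. Of 9 pericyte and smooth muscle genes, Cnn1 at 1.04 (SE 0.416) and Cspg4 at 0.30 (SE 0.124) were higher and Myh11 at -0.93 (SE 0.264), Acta2 at -0.89 (SE 0.200) and Abcc9 at -0.64 (SE 0.263) were lower at that threshold (4.91% of all tested genes were higher and 9.73% lower), with a median of -0.18, and none passed the adjusted threshold. Cygb was 7.16% to 13.5% of the summed counts of those 9 genes in ac-WT and 9.25% to 17.8% in ac-CYB5R3–KO hearts. Against the fibroblast genes the shares were 0.679% to 2.58% and 0.734% to 1.87%. Without ac-WT mice 2 and 3, 3 of 10 fibroblast genes were lower at an unadjusted p under 0.05, beside 4.54% of all genes tested there.

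Proteins that reduce, bind or clear globins were examined last. Of 14 tested genes, none was higher and 2 were lower at an unadjusted p under 0.05, beside 4.91% and 9.73% of all tested genes. They were Cyb5r3 and Cd163, the macrophage receptor that takes up hemoglobin bound to haptoglobin. Cd163 had 8.50 to 31.9 CPM in ac-WT and 5.33 to 14.4 CPM in ac-CYB5R3–KO hearts (log2 fold change -0.96, SE 0.282, edgeR adjusted p = 0.188). Cyb5r3 was the 1 gene of the list that passed the adjusted threshold, which it did not pass with total counts or without ac-CYB5R3–KO mouse 3. Of the other reductases, Cyb5r1 stood at 0.17 and Cyb5r2 at -0.82 (SE 0.446). Cyb5r2 was scarce, with 0.474 to 3.69 CPM in ac-WT and 0.489 to 1.41 CPM in ac-CYB5R3–KO hearts. The electron carriers Cyb5a and Cyb5b stood at 0.04 and 0.16, heme oxygenase Hmox1 at 0.21 and the endothelial nitric oxide synthase Nos3 at 0.05. None of these genes passed an unadjusted p under 0.05.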

How the data were processed

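Stranded libraries of total heart RNA were sequenced from 1 end over 75 bp. The authors removed adapters, mapped the reads with STAR to mm9 per their methods, and deposited raw counts per Ensembl gene. The submitters' processing notes name STAR, featureCounts and GRCm39 without versions, so the sources disagree on the build. Strand setting, annotation and treatment of reads matching several genes are not given in the sources used here. No column was left unused. Counts were filtered (filterByExpr, minimum count 10), scaled by TMM and tested with edgeR 4.0.16 (R 4.3.3), two-sided, without covariates, and DESeq2 1.42.0 was an alternative. The biological coefficient of variation was 26.5%. The mice are separate animals. Ratios used log2 counts with 0.5 added, and the smallest p of their exact permutation test is 0.00216. The reads carry no molecular identifiers, so a count is not a number of molecules.

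The 6 genes and all lists were chosen with earlier results of these data known. Named genes were the members, list genes at an unadjusted p under 0.05, those a sentence on cell type turns on, and the 5 closest genes of Mb, Cygb and Hbb-bs. Some genes named by this rule are not reported here. Ahsp was not matched. Exon lengths and gene coordinates came from the GENCODE annotation of NCBIM37 and promoters from RefSeq (GRCm38.p6).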

Additional observations from a re-analysis of the deposited data

How the results depend on the processing

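Over 21 alternatives (other scalings, filters and tests, near-identical genes summed, the replicate number as a block, and mice left out), no globin gene passed an adjusted p under 0.05 in any. The blood globins kept their direction in all, with log2 fold changes from 1.07 to 2.45 and adjusted p from 0.196 to 0.477, and Cygb did so from 0.02 to 0.39. Mb turned to 0.18 with total counts and 0.087 without ac-WT mice 2 and 3, and ran from -0.44 to 0.033 as each mouse was left out, above 0 without ac-WT mouse 2. The 18 genes called over all genes became 451 with DESeq2, 8 with its size factors in edgeR, 8 with total counts, 35 without a filter, 2 with the replicate number as a block, 7 without ac-WT mice 2 and 3, and 2 to 38 as each mouse was left out. The cause of these changes was not tested.

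The difference of Mb to Hba-a1 (unadjusted p = 0.0476 by the exact permutation test) kept its direction and missed 0.05 at -2.36 without ac-WT mice 2 and 3 (p = 0.0524) and at -1.98 with the replicate number as a block (p = 0.125 by exact sign flips, which cannot go below 0.03125), and ran from -2.48 to -1.53 as each mouse was left out. Mb to Hbb-bs ran from -2.53 to -1.54, past 0.05 in 3 of these fits. Cygb to Hba-a1 became -2.38 and Cygb to Hbb-bs -2.40 without ac-WT mice 2 and 3 (exact permutation p = 0.0095 and 0.0143), and they ran from -2.07 to -1.08 and from -2.07 to -1.12 as each mouse was left out. Mb to Cygb became 0.028 without ac-WT mice 2 and 3. Hbb-bs to Hbb-bt ran from -0.0047 to 0.015 as each mouse was left out. Hearts with the same replicate number are different animals, and the numbers were not taken as pairs. Hearts of the same number correlated in their deviations from the group means at a mean r of 0.133 (from -0.160 to 0.360). Other pairs had a mean r of -0.0255, and 3 of 6 ac-WT hearts were closest to their own number. Whether hearts of the same number share a source of variation was not tested. Beside the count over all genes and Mb to Hba-a1, the block changed no call of a globin gene or ratio. Depth was not varied. The counts of list genes under other settings and the correlations without single hearts were added after the data were seen.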
